A study of Arabidopsis thaliana with 4 samples.

Results

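Salicylate defence genes are the genes that Arabidopsis leaves switch on through the hormone salicylic acid when they are attacked by microbes that feed on living tissue. A set of 7 probe sets of the ATH1 array, out of 22810 in the table, was described here, and their names and loci came with the rule that chose them. The pathogenesis-related genes were PR1 (AT2G14610, probe set 266385_at), PR2 (AT3G57260, 251625_at) and PR5 (AT1G75040, 259925_at). The regulators were WRKY70 (AT3G56400, 251705_at) and PAD4 (AT3G52430, 252060_at). The others were a legume lectin gene (AT5G03350, 250942_at) and a chitinase gene (AT2G43570, 260568_at). The platform annotation lists 2 of these 7 probe sets, the lectin and the chitinase, and gives the same loci for them. The 7 were chosen by gene with the values of php against wild-type on these 4 arrays in view, so their differences between genotypes are a description and have no test. All 7 passed the filter on low values described below.

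The plants were Arabidopsis thaliana, either wild-type or carrying a php mutation, and no allele or accession is named in the labels. The PHP protein, a plant relative of human parafibromin, belongs to the PAF1 complex, which accompanies RNA polymerase II as it transcribes genes. Above-ground tissue was taken from plants grown on soil for 14 days, with no treatment or pathogen named in the labels. Each genotype had 2 arrays, replicates I and II, and each array pooled 3 independently derived samples, so the spread between plants within a pool is not measured. Levels are log2 values normalized by the authors with GCRMA, and 1 log2 unit stands for a 2-fold change in level. Pooled aerial tissue holds many cell types, and fewer cells of a type and less RNA per cell cannot be told apart.

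Salicylate is made from chorismate and accumulates after immune receptors signal through EDS1 and its partners PAD4 and SAG101. The hormone is perceived by NPR proteins, which work with TGA transcription factors at the promoters of pathogenesis-related (PR) genes. WRKY70 is a transcription factor known to favour salicylate responses over jasmonate responses. PR1, PR2 and PR5 encode secreted proteins and are the usual markers of this branch. PR2 is a beta-1,3-glucanase, PR5 is a thaumatin-like protein, and PR1 belongs to the CAP family of small secreted proteins.

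PR1, the chitinase gene AT2G43570 and the lectin gene AT5G03350 were 4.76-fold, 3.64-fold and 2.52-fold lower in php by the means of 2 arrays. PR2 was 1.85-fold lower, and PR5 was 1.34-fold lower with arrays of the genotypes overlapping. WRKY70 overlapped between genotypes, and PAD4 was 1.05-fold higher. The median log2 difference of the 7 was -0.89, beside 0.0058 over all 15922 probe sets tested.

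**Figure D1:**
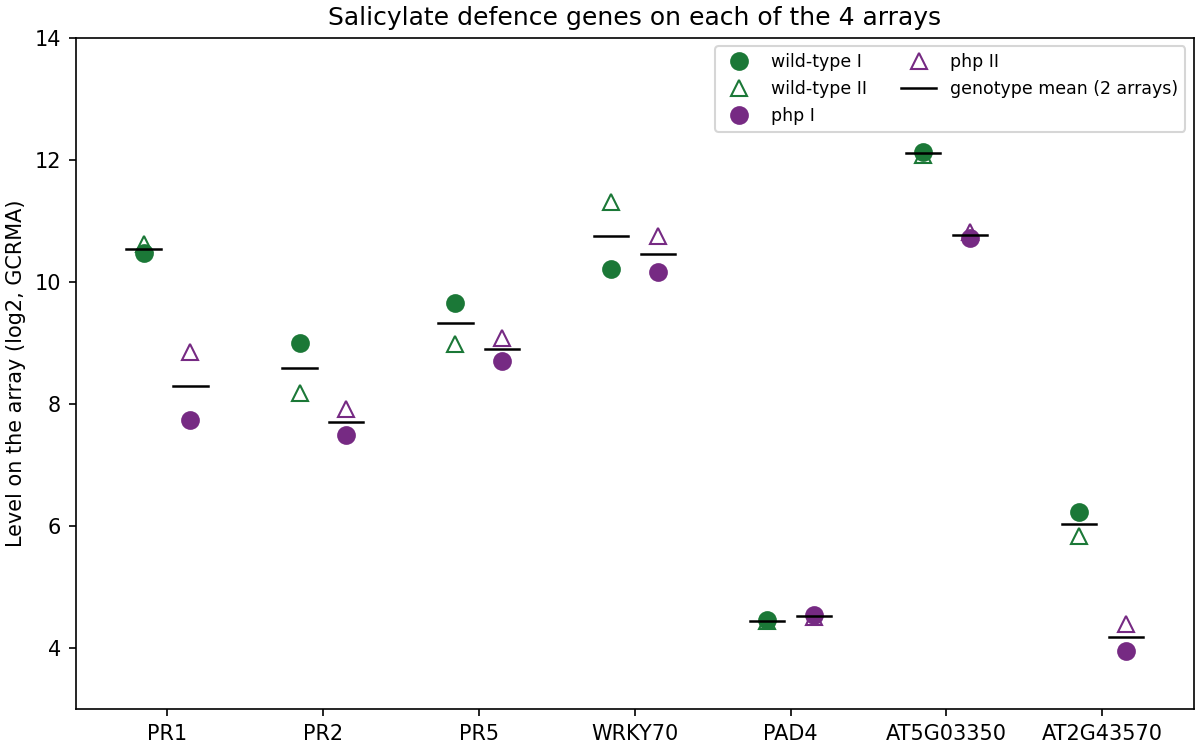
Log2 level of each of the 7 salicylate defence genes on each array (filled circles, replicate I, open triangles, replicate II, green, wild-type, purple, php), with black bars for the mean of 2 arrays. The genotypes are apart for PR1, AT5G03350 and AT2G43570, overlap for PR5 and WRKY70, and nearly coincide for PAD4.

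PR1 stood at 10.47 and 10.61 in wild-type and at 7.73 and 8.85 in php. Both php arrays lay well below both wild-type arrays, but they were 1.12 apart from each other, while the wild-type arrays were 0.14 apart. The means were 10.54 ± 0.10 in wild-type and 8.29 ± 0.79 in php (SD, n = 2 arrays each), a log2 difference of -2.25. Over the 4 pairings of a php array with a wild-type array, the PR1 difference ran from -2.88 to -1.62. In the order of differences over all tested probe sets, PR1 stood at place 6 of 15922 from the lowest.

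PR2 was at 9.00 and 8.19 in wild-type and at 7.49 and 7.93 in php. The genotypes were separate, but the higher php array came close to the lower wild-type array, with a difference of -0.26. The PR2 difference of means was -0.89, from 8.59 ± 0.58 to 7.71 ± 0.31 (SD, n = 2 arrays each). Without wild-type replicate II it was -1.29, and without wild-type replicate I it was -0.48, so 1 array decided a good part of its size.

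PR5 was at 9.65 and 8.98 in wild-type and at 8.70 and 9.09 in php. The php II array exceeded the wild-type II array, so the genotypes overlapped. The PR5 difference of means was -0.42, smaller than the gap of 0.67 between the wild-type arrays. It was -0.09 without wild-type replicate I, -0.23 without php replicate I and -0.76 if wild-type replicate II was left out. Of the PR markers, PR5 thus had the difference least separate from the spread between arrays.

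The chitinase gene AT2G43570, a member of the enzyme class that cuts the chitin of fungal walls, was at 6.23 and 5.84 in wild-type and at 3.95 and 4.40 in php. Both php arrays were below both wild-type arrays, by -2.28 to -1.45 over the 4 pairings. Its means were 6.04 ± 0.28 and 4.18 ± 0.31 (SD, n = 2 arrays each), a log2 difference of -1.86, place 14 of 15922 from the lowest. Leaving out each array in turn gave -2.08 to -1.64.

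The lectin gene AT5G03350, known to respond to salicylate, was the steadiest of the lower genes. It was at 12.13 and 12.08 in wild-type and at 10.72 and 10.82 in php. The php arrays were 0.10 apart and the wild-type arrays closer still, and the 4 pairings across genotypes ran from -1.41 to -1.26. The difference of means was -1.33, place 29 of 15922 from the lowest.

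WRKY70 was at 10.21 and 11.30 in wild-type and at 10.16 and 10.75 in php. Its values separated by replicate number rather than by genotype, with both II arrays above both I arrays. The difference of means was -0.31 with SDs of 0.77 and 0.42, and with each array left out it ran from -0.85 without wild-type replicate I to 0.24 without wild-type replicate II. Leaving out php replicate II gave -0.60, and leaving out php replicate I gave -0.01. No direction between genotypes is given for WRKY70 for that reason.

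PAD4, a lipase-like protein that works with EDS1 to raise salicylate, was at 4.46 and 4.44 in wild-type and at 4.55 and 4.51 in php. All 4 arrays lay close together, and php was higher by 0.08 on the log2 scale. Of all tested probe sets, 64.1% had a lower value of the difference than PAD4. The PAD4 difference therefore stood near the middle of the array, unlike those of PR1, AT2G43570 and AT5G03350.

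Counted over the 7 genes, 4 were lower on both php arrays than on either wild-type array, as were 27.4% of all tested probe sets. One, PAD4, was higher on both, as were 33.2% of all tested, and 2 overlapped, as did 39.5%. The mean was at least 2-fold lower in php for 3 of the 7, and for 0.446% of all tested. These counts rest on the values that chose the genes, and nothing is read from them.

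**Figure D2:**
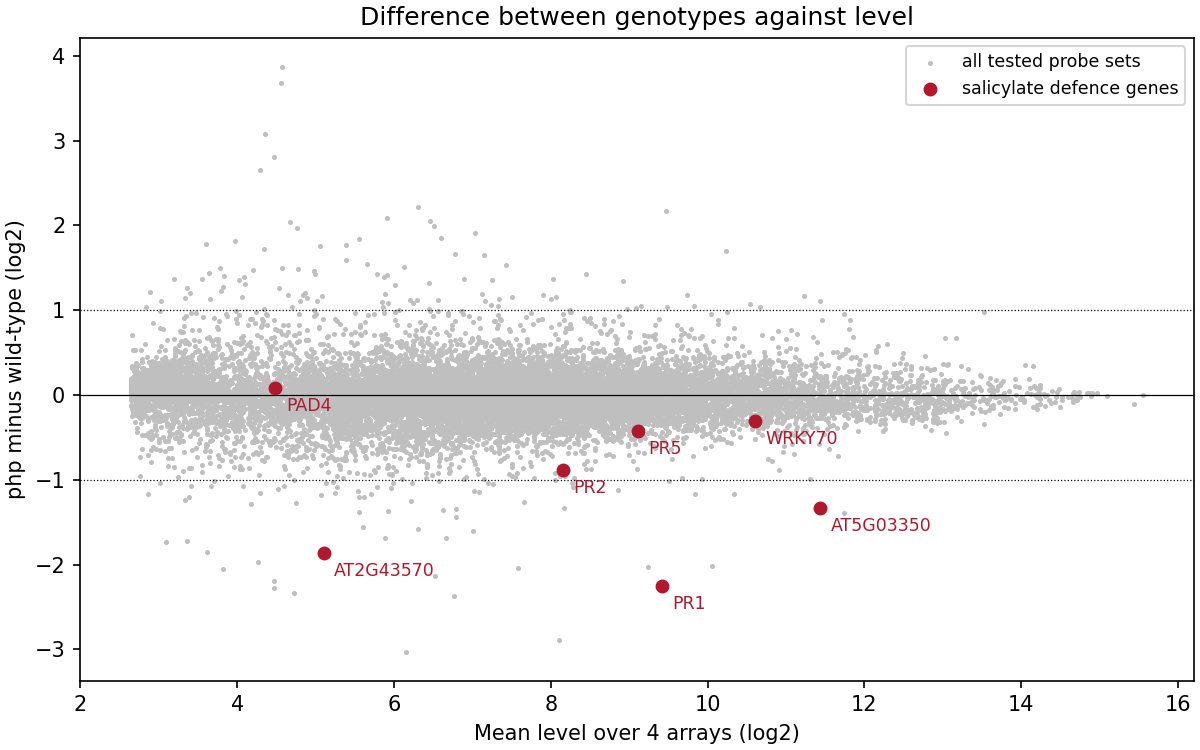
Difference between genotypes (php minus wild-type, log2) against the mean log2 level over 4 arrays for 15922 tested probe sets (grey) and the 7 salicylate defence genes (red), with dotted lines at 2-fold. PR1, AT2G43570 and AT5G03350 lie below the lower dotted line, PR2 just above it, and PAD4 in the middle of the cloud.

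The genes were chosen with the values of the single arrays in view. Their differences between replicates of one genotype are therefore also a description and have no test. The median gap between replicates over the 7 was 0.39 in wild-type and 0.43 in php, beside 0.09 and 0.11 over all tested probe sets. In each genotype 5 of the 7 had a gap above that median over all tested. PR2, PR5 and AT2G43570 shared a pattern, lower on wild-type II than on wild-type I, by 0.81, 0.67 and 0.39, and higher on php II than on php I, by 0.43, 0.38 and 0.44. AT5G03350 had the same directions with small gaps (II minus I), of -0.05 in wild-type and 0.10 in php. For all of these genes the 2 genotypes were farther apart on the I arrays than on the II arrays. PR1 was also farther apart on the I arrays, through its php value, whereas WRKY70 was higher on the II array in both genotypes, by 1.09 in wild-type and 0.59 in php.

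**Figure D3:**
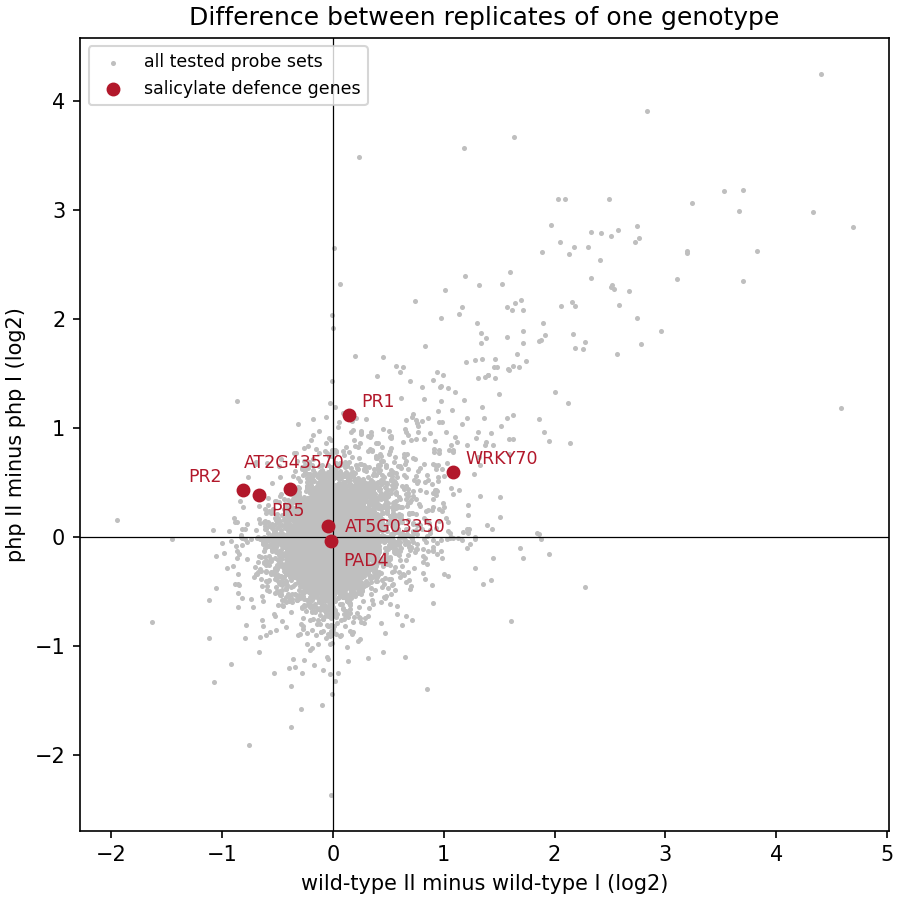
Replicate II minus replicate I (log2) in wild-type (horizontal) and in php (vertical) for all tested probe sets (grey) and the 7 salicylate defence genes (red). PR2, PR5 and AT2G43570 lie in the upper left, WRKY70 at the right with the probe sets that were higher on the II array in both genotypes, and PAD4 and AT5G03350 near the centre.

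Other genes of salicylate synthesis, signalling and response were taken from a list of 73 loci, of which a probe set named here measured 10. Of these, 6 were tested against all 15922 probe sets with limma, a linear model that borrows the spread of other probe sets, and called at an adjusted p under 0.05. Of the 6, 0 were called in either direction and 0 had an unadjusted p under 0.05, while limma called 0.0314% of all tested probe sets (5 of 15922). Limma gave an unadjusted p under 0.05 to 24.2% of all tested. The median log2 difference of the 6 was 0.04. On both php arrays 2 of the 6 were higher, as were 33.2% of all tested, and 4 overlapped, as did 39.5%.

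The other measured genes of the EDS1 node were SAG101 and a copy of EDS1. Of these 2, 0 were called, beside 0.0314% of all tested probe sets. SAG101, which pairs with EDS1, was at 4.61 and 4.81 in wild-type and at 4.91 and 5.10 in php. Both php arrays were slightly above both wild-type arrays, by a mean of 0.29 (SE 0.13, 95% confidence interval -0.06 to 0.64, limma adjusted p = 0.258). Without wild-type replicate I the SAG101 difference was 0.19. AT3G48080, a close copy of EDS1 at the neighbouring locus, was at 4.55 and 4.36 in wild-type and at 4.56 and 4.54 in php, a difference of 0.10 (SE 0.10, limma adjusted p = 0.571). Its probes may also bind EDS1 transcript, so the value is uncertain for either copy. The 95% confidence interval of the AT3G48080 difference was -0.18 to 0.37. The arrays of the genotypes overlapped, and without wild-type replicate II the difference was 0.0033.

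Of the listed WRKY genes, 2 were measured and 0 were called, beside 0.0314% of all tested probe sets. WRKY53, a transcription factor of senescence and defence related to WRKY70, was at 4.89 and 6.41 in wild-type and at 4.23 and 6.55 in php. Like WRKY70 it was higher on the II array in both genotypes, and its difference of -0.26 between genotypes (SE 0.99, limma adjusted p = 0.888) was small beside that spread. Without php replicate I it was 0.90. WRKY6, a transcription factor of senescence and defence, differed by -0.02 (SE 0.17, limma adjusted p = 0.945), or by 0.15 without wild-type replicate II.

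A response gene and a gene of systemic resistance were measured, and 0 were called, beside 0.0314% of all tested probe sets. GRX480, a glutaredoxin that binds TGA factors and is induced by salicylate, was at 4.74 and 4.84 in wild-type and at 4.85 and 5.61 in php. Its difference was 0.44 (SE 0.28, limma adjusted p = 0.391), and it was 0.06 without php replicate II. AT5G52810, known as SARD4, acts in the synthesis of pipecolic acid, a signal of systemic resistance, and differed by -0.12 (SE 0.16, limma adjusted p = 0.680). AT5G52810 was at 0.09 without wild-type replicate I.

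A further 4 genes of the list were below the filter in both genotypes and were not tested. They were the salicylate methyltransferase gene BSMT1 at 2.23 in wild-type and 2.32 in php, the glucosyltransferase genes UGT74F1 at 2.47 and 2.52 and UGT76B1 at 2.28 and 2.33, and the NPR1 relative AT4G26120 at 2.04 and 2.05. The filter left out probe sets with a mean log2 level up to 2.64, so no difference could be read for these. ICS1, EDS1, NPR1 and the other loci of the list were not analysed here.

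Of the tested genes of the same protein families as the 7 members, 8 of 10 had a lower mean in php, as did 48.8% of all tested probe sets, and 0 were called, beside 0.0314% of all tested. Of 30 loci listed as relatives or neighbours, 20 were measured and 10 tested. An unadjusted p under 0.05 was given to 5, all of them lower in php, and limma gave it to 24.2% of all tested probe sets. The median log2 difference of the 10 was -0.25. On both php arrays 7 of the 10 were lower, as were 27.4% of all tested, and 1 was higher, as were 33.2%, while 2 overlapped, as did 39.5%. The list was drawn up with earlier results of these data known, and nothing particular to it is read from these counts.

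OSM34 and the chitinase gene AT2G43590 had the largest differences among the relatives. OSM34, an osmotin of the thaumatin-like family of PR5, was at 4.60 and 5.09 in wild-type and at 2.66 and 2.92 in php, where it lay near the filter and its fold is therefore imprecise. Its difference was -2.06 (SE 0.20, limma adjusted p = 0.088, range over 9 alternatives 0.066 to 0.408). AT2G43590, which stands 2 genes from AT2G43570 in the TAIR10.1 order of protein-coding genes, was at 6.47 and 6.55 in wild-type and at 5.51 and 5.44 in php. Its difference was -1.04 (SE 0.09, limma adjusted p = 0.086, range over 10 alternatives 0.051 to 0.408).

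A pair of other thaumatin-like genes had lower levels on both php arrays, as did 27.4% of all tested probe sets. Of these 2, 0 were called, beside 0.0314% of all tested. AT2G28790 was at 10.47 and 10.60 in wild-type and at 10.06 and 10.13 in php, a difference of -0.44 (SE 0.07, limma adjusted p = 0.096). AT1G20030 was at 8.91 and 8.92 in wild-type and at 8.30 and 8.66 in php, also -0.44 (SE 0.14, limma adjusted p = 0.180). The AT1G20030 difference was -0.26 without php replicate I and -0.62 without php replicate II, whereas that of AT2G28790 stayed between -0.50 and -0.38 with each array left out. For both genes the arrays of the genotypes did not overlap. AT1G75050, the next gene to PR5, lay at the filter, at 2.66 in wild-type and 2.62 in php.

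Relatives of PR1 were close to or below the filter. PR-1-LIKE had means of 2.83 ± 0.02 for wild-type and 2.61 ± 0.0045 for php (SD, n = 2 arrays each), near the floor, with a difference of -0.22 (SE 0.04, limma adjusted p = 0.114). The CAP family genes AT1G50060, AT2G19970, AT4G33710, AT4G33720 and AT4G33730 had means between 1.95 and 2.18 and were not tested. The named relatives of PR1 that were measured here thus all lay near or below the filter.

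The genes of the chitinase cluster around AT2G43570 differed among themselves. AT2G43580, AT2G43600 and AT2G43610 had means between 1.98 and 2.36 and were not tested. AT2G43620 was at 4.05 and 3.67 in wild-type and at 3.70 and 3.46 in php, a difference of -0.28 (SE 0.17, limma adjusted p = 0.368). Either wild-type array moved the AT2G43620 value, to -0.09 with only wild-type II kept and to -0.47 with only wild-type I kept. These chitinases are related in sequence, and signal shared between their probe sets was not tested.

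Of the relatives of the lectin gene, 2 were tested and 0 were called, beside 0.0314% of all tested probe sets. AT3G16530, another legume lectin gene, was at 9.63 and 9.53 in wild-type and at 9.36 and 9.51 in php, a difference of -0.14 (SE 0.08, limma adjusted p = 0.347), or -0.07 without php replicate I. AT1G53070 was at 6.88 and 7.27 in wild-type and at 6.95 and 7.27 in php, a difference of 0.04 (SE 0.19, limma adjusted p = 0.922), or -0.16 without wild-type replicate I. AT5G03360 and AT1G53080 were below the filter, at 2.21 and 2.36 in wild-type. The glucanase gene AT4G16260, a relative of PR2, was just above the filter at 2.74 and 2.76 and differed by 0.02 (limma adjusted p = 0.775).

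Jasmonate and ethylene drive a separate defence branch that salicylate can hold down, so its genes were set beside the salicylate genes. Of 19 listed loci, 5 were measured and tested, 0 were called, beside 0.0314% of all tested, and 0 had an unadjusted p under 0.05, beside 24.2%. THI2.1, a thionin, was at 3.85 and 3.09 in wild-type and at 5.90 and 3.99 in php, a difference of 1.48 (SE 0.73, limma adjusted p = 0.302), or 0.52 without php replicate I. The defensin gene PDF1.2 was at 8.45 and 7.0 in wild-type and at 7.58 and 7.56 in php, a difference of -0.15 (SE 0.52), or 0.58 without wild-type replicate I, and its copy PDF1.2b gave -0.07 (SE 0.70), or 0.90 without wild-type replicate I. EIN3, a transcription factor of the ethylene response, stood 0.14 higher in php (SE 0.07), and was at 0.08 once php replicate I was left out. JMT, which methylates jasmonate, differed by -0.32 (SE 0.21), by -0.04 without php replicate II and by -0.60 without php replicate I. The median of the 5 was -0.07. PDF1.2 shared the drop from wild-type I to wild-type II seen for PR2 and PR5, but was level between the php arrays.

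**Figure D4:**
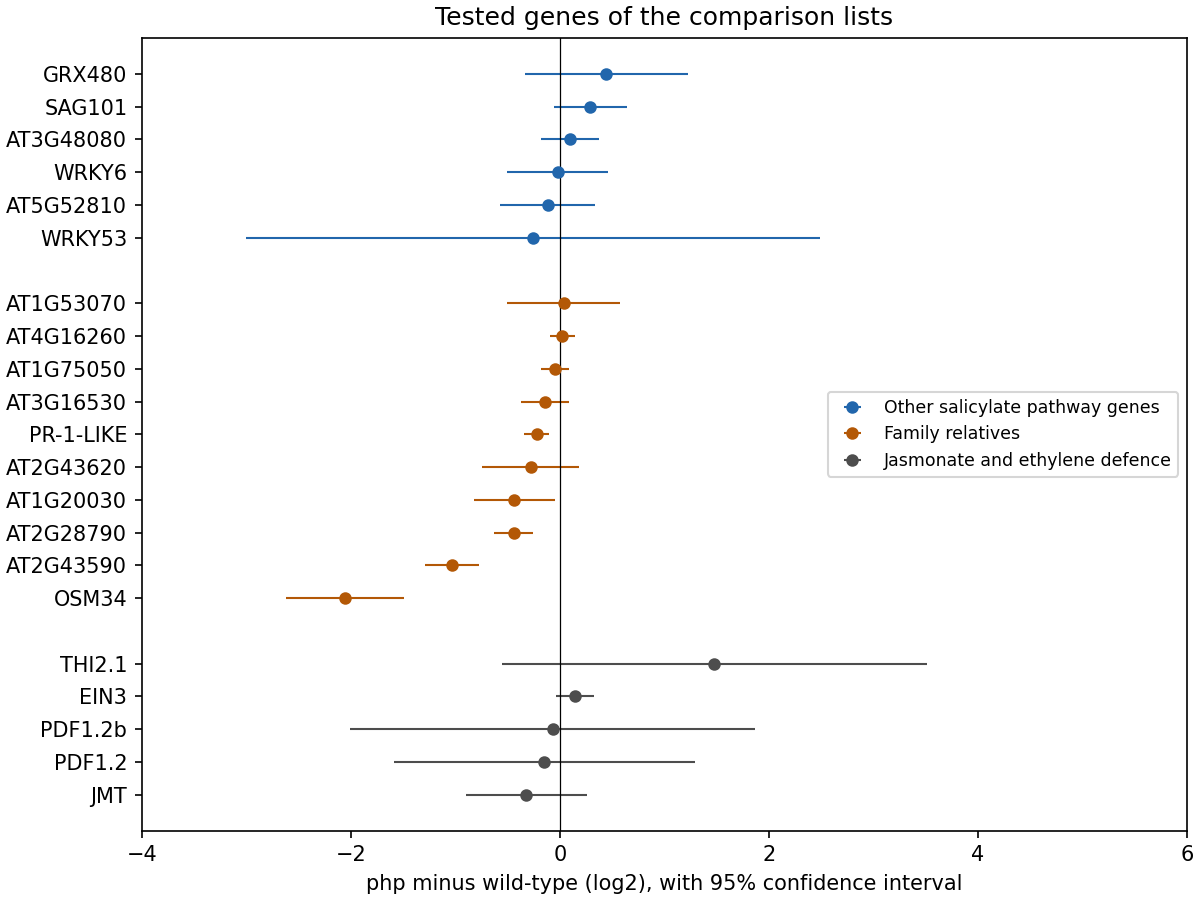
Difference between genotypes (php minus wild-type, log2) for the tested genes of the salicylate pathway (blue), of the members' protein families (orange) and of jasmonate and ethylene defence (grey), with bars for the 95% confidence interval of the limma fit. The salicylate pathway genes lie around 0, and OSM34 at -2.06 and AT2G43590 at -1.04 stand apart from the other relatives.

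Genes next to the members on the chromosome were added by position, outside the rule for named genes, to see whether the lower levels extended along the chromosome. Within 3 genes on each side of the 7 members, 21 neighbours were measured and 15 tested. The other genes at these positions had no probe set named here. AT2G14660 was the only measured neighbour of PR1, and AT1G75050 that of PR5, so the regions are only partly covered. Within 3 genes on one side of AT2G43570, AT2G43540 differed by -0.45 (SE 0.08), AT2G43550 by 0.48 (SE 0.06) and AT2G43560 by -0.29 (SE 0.04), with limma adjusted p of 0.113, 0.093 and 0.096. On the other side stood AT2G43590, described above as a relative, at -1.04 (limma adjusted p = 0.086), between the untested AT2G43580 and AT2G43600. Around AT5G03350, AT5G03345 differed by -0.16 (SE 0.07) and AT5G03370 by -0.29 (SE 0.11), with limma adjusted p of 0.250 and 0.214. Near PR1, AT2G14660 differed by -0.26 (SE 0.14, limma adjusted p = 0.334). Near PR2, AGL16 differed by 0.42 (SE 0.10, limma adjusted p = 0.139) and AT3G57280 by 0.05. AT3G52390, near PAD4, differed by -0.19 (SE 0.10, limma adjusted p = 0.310), and AT1G75050, next to PR5, by -0.05. Near WRKY70, AT3G56370 differed by -0.05, AT3G56410 by 0.22 and AT3G56430 by -0.11. Of the 15 neighbours tested, 8 were lower on both php arrays, 4 were higher and 3 overlapped, beside 27.4%, 33.2% and 39.5% of all tested. Limma called 0 of the 15, beside 0.0314% of all tested, and gave 5 an unadjusted p under 0.05, beside 24.2%. The genes around AT2G43570 supplied 4 of these 15 and 4 of the 5, with AGL16 the other of the 5. The lowest difference of the 15 was that of AT2G43590. PUB22, a ubiquitin ligase gene near PAD4 that is known to dampen immune responses, was at 2.77, 2.97 and 2.94 on wild-type I, wild-type II and php I and at 4.60 on php II.

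The 8 named probe sets whose centred profile over the 4 arrays came closest to the mean profile of the 7, by Euclidean distance over 8848 candidates, were found as a description. The nearest was MAP1B, a methionine aminopeptidase gene, at a distance of 0.10, with 6.58 and 6.45 in wild-type and with 5.19 and 5.64 in php. Then came AT4G24050 at 0.11, AT4G01870 at 0.15, AT1G59960 at 0.16, AT1G33265 at 0.17, AT4G19380 at 0.19, AT3G60440 at 0.21 and AT2G24040 at 0.22. Their differences between genotypes ran from -1.10 for MAP1B to -0.84 for AT1G59960. The 8 were picked for closeness to a profile averaged from the members' own values. Their small distances and similar differences were therefore fixed by the choice, and nothing is read from them. The members lay at distances from 0.41 for AT5G03350 to 1.36 for PR1 from their own mean profile, and they differed in size and in replicate pattern.

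**Figure D5:**
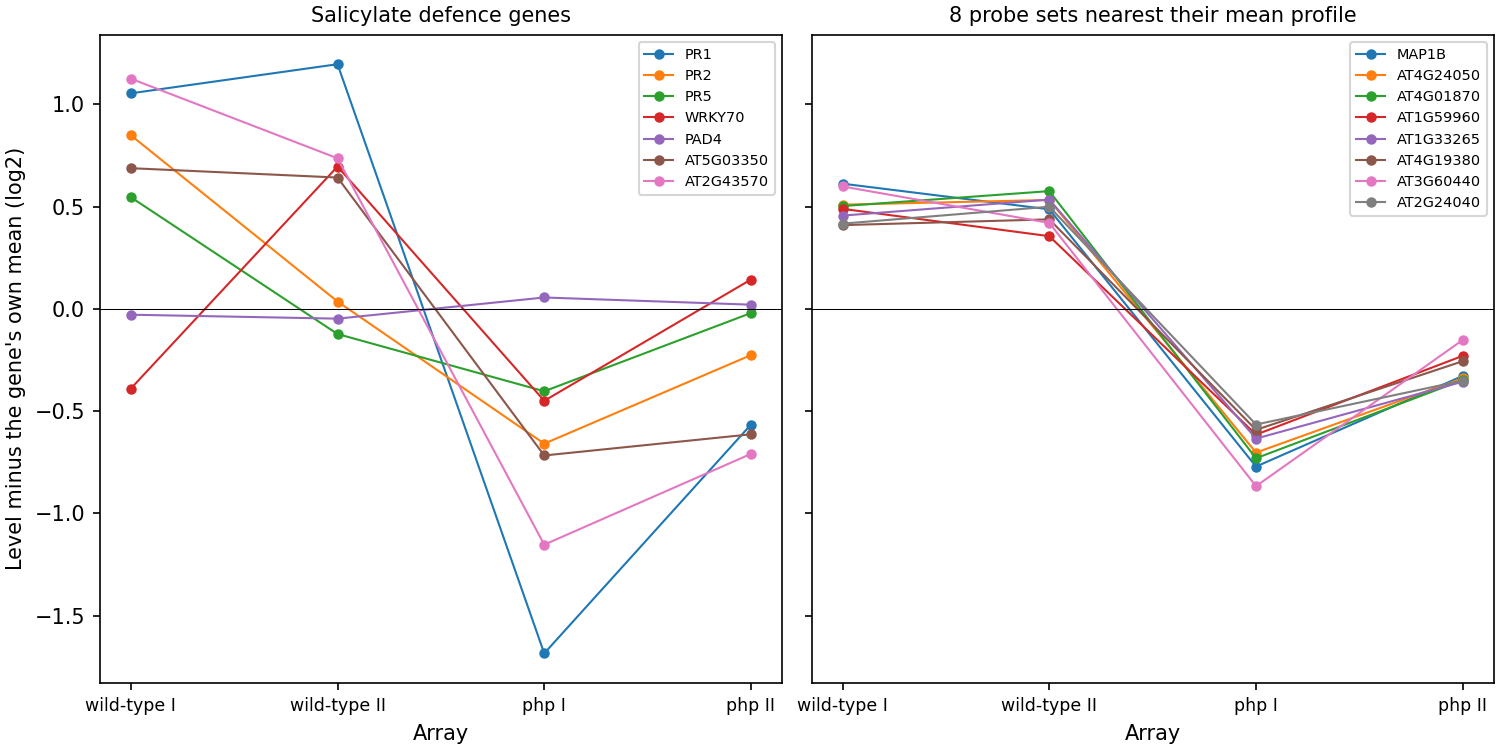
Level minus the gene's own mean (log2) on each array for the 7 salicylate defence genes (left) and for the 8 named probe sets nearest to their mean profile (right). The left lines spread widely, with WRKY70 and PAD4 apart from PR1, AT2G43570 and AT5G03350, while the right lines all lie above 0 on the wild-type arrays and below 0 on the php arrays.

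Facts of the whole series that touch these results are few. The 5 measured leaf markers, RCA, LHCB4.1, LHCB4.2, PSBW and PSBY, were at 13.47 to 14.55 on all arrays and differed by -0.09 to 0.07. Of the root markers, 2 of 4 were measured, EXPA7 lay at 1.91 to 1.93, and the log2 of their summed level, nearly all PYK10, was 11.67 and 11.88 for wild-type and 12.31 and 12.18 for php. The 3 measured flower markers, AMS, SPL and INO, were below the filter on every array, with a log2 summed level of 3.71 on each wild-type array and of 3.76 and 3.74 for php. The 25S rRNA control probe set was higher on both php arrays, by 1.18 on the log2 scale. The 18 hybridization spike-in probe sets (BioB, BioC, BioD and Cre) were also higher on both php arrays, by 0.22 to 0.51, and the 5 GAPDH control probe sets lower on both, by -0.40 to -0.22. The part of these markers and controls in the lower PR1, AT2G43570 and AT5G03350 was not tested. The PHP transcript was not analysed here.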

How the data were processed

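RNA from aerial tissue of 4 samples was measured on Affymetrix ATH1 arrays, 2 wild-type and 2 php. The authors used GCRMA for background correction and normalization, per the series' design text, and deposited log2 values. MAS5 is also named in the submitters' processing notes, with no version for either. Nothing further was normalized. The 64 control probe sets and the 6824 in the lowest 30% by mean level were left out, leaving 15922. Differences were fitted with limma 3.58.1 in R 4.3.3 (lmFit, eBayes with a variance trend, two-sided, Benjamini-Hochberg over 15922). The fit was tested on simulated data. With 2 arrays a genotype, the smallest two-sided p of an exact permutation test is 0.333, so p-values rest on the model. The number of arrays limits the precision, and p-values measure the spread between pooled samples.

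Names came from the platform annotation and, for the 7 members, from the rule that chose them. Through gene identifiers 13436 probe sets matched a locus of RefSeq assembly TAIR10.1, used for names and gene order only. The members and the 12 gene lists, with 159 distinct loci, were chosen with earlier results of these data known. The lists of pattern-triggered immunity and camalexin genes and of seed markers had 0 measured loci here. Named genes were the 7 members, the measured genes of each list and the 8 nearest profiles. Alternatives were other filters, no variance trend, quantile normalization, median centring, a replicate block and leaving out each array. Figures were drawn with matplotlib 3.10.9.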

Additional observations from a re-analysis of the deposited data

Results flagged for a closer look

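Some control probe sets outside the comparison carried a signal that was higher on both php arrays than on either wild-type array. The 25S rRNA control was at 5.40 and 5.50 in wild-type and at 6.30 and 6.97 in php. Its log2 difference was 1.18, and that of the 5S rRNA control was 1.09. All 18 hybridization spike-in probe sets, for the bacterial BioB, BioC and BioD and phage Cre transcripts added to each sample, had higher levels on each php array as well, with a median difference of 0.35 and a range of 0.22 to 0.51. Of the 27 probe sets for the other spike-in family (Dap, Lys, Phe, Thr and Trp), 3 were higher on both php arrays, 5 lower and 19 overlapped. The 5 GAPDH control probe sets were lower on both, from -0.40 to -0.22, while 5 of 6 actin and 3 of 5 ubiquitin control probe sets were higher on both. The php II array was highest for both rRNA controls. PR1, PR2, PR5, WRKY70, AT2G43570 and AT5G03350 were lowest on php I, and PAD4 was highest there. The part of these controls in the differences of the salicylate defence genes was not tested.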

How the results depend on the processing

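Over all tested probe sets, 5 were called, and this count was 0 without the filter on dim probe sets, 21 with the lowest 50% left out, 9 after median centring, 0 with the replicate number as a block and 0 to 0 with each array left out, when limma gave 1913 to 4020 an unadjusted p under 0.05. Fits with an array left out held fewer arrays, the fit without the filter held more probe sets, and the block fit held the same of both. What changed the count was not tested. The labels do not say whether same-numbered arrays share a batch. Replicate differences of the genotypes correlated at r = 0.52 across probe sets, and the source of this correlation was not tested. The block changed no call on a listed gene. With all arrays kept, 0 genes were called under any alternative in the lists of other salicylate genes, family relatives, and jasmonate and ethylene genes. In those fits limma gave an unadjusted p under 0.05 to 0 to 1, 3 to 7 and 0 to 1 of them. The 7 relatives came from the fit without the filter, which also tested the dim relatives. That fit gave such a p to 8020 probe sets, beside 3856 in the main fit. The 3 came from the fit with the lowest 50% left out, which gave it to 3151. Changes of filter alter how many genes are tested, so nothing is read from this range. The median difference of the 7 salicylate defence genes lay between -1.29, without wild-type replicate II, and -0.67 with each array left out. With each array left out, the difference of WRKY70 ranged from -0.85 to 0.24, of WRKY53 from -1.42 to 0.90, of WRKY6 from -0.20 to 0.15, of AT5G52810 from -0.32 to 0.085, of AT1G53070 from -0.16 to 0.23, of PDF1.2 from -0.88 to 0.58 and of PDF1.2b from -1.05 to 0.90. WRKY6 was at 0.018 after median centring and AT4G16260 at -0.055 after quantile normalization. Of 240 recomputed differences over 28 genes, 226 kept their direction and their side of the threshold or stayed within 1 SD. Of the rest, 13 reversed. Other filters, no variance trend and the block leave a difference of means as it was, so none of these could reverse. They supplied 21 (no filter), 9 (lowest 50% left out), 21 (no trend) and 21 (block) of the 226. Where a direction changed, the cause was not tested.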
